A study of Mus musculus with 147 samples.

Results

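The growth arrest and survival genes followed here are *Btg1*, *Btg2*, *Cdkn1a*, *Gadd45a*, *Gadd45b*, *Gadd45g*, *Mcl1*, *Bax*, *Bcl2l11* and *Trp53*. They were taken by symbol from the gene column of the deposited tables, where all 10 were present among 35438 genes. Renin cells of the kidney arterioles normally make renin, and the study compared their transcripts between mice with and without the renin gene. Single YFP-positive cells were profiled by RNA sequencing from WT mice (*Ren1c+/+ Ren1c-YFP*) and from *Ren1c-KO* mice (*Ren1c-/- Ren1c-YFP*), which yielded 51 and 96 cells, called WT renin cells and *Renin*-null cells. All animals were adult mice of the C57BL/6 strain, and cells of both groups were found by the *Ren1c-YFP* transgene, a reporter placed under upstream DNA of *Ren1c*. YFP therefore reports activity of that DNA and not the presence of renin. Mice with the deleted allele were given saline under the skin in the days after birth, which WT mice were not stated to receive. Kidney cortex was digested with enzymes, dead cells were marked with DAPI, and sorted cells were loaded on the Fluidigm C1 System, which holds 1 cell in a well and turns its polyadenylated RNA into full-length cDNA.

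BTG proteins bind the CCR4-NOT complex, which shortens the poly(A) tails of mRNAs, and they slow cell division. p53, the product of *Trp53*, is a transcription factor that responds to DNA damage, and its best known target is *Cdkn1a*, which encodes the p21 inhibitor of cyclin-dependent kinases. GADD45 proteins are small stress-inducible proteins that bind kinases and cell cycle regulators. Whether a stressed cell survives depends in part on the BCL2 family, in which *Mcl1* protects mitochondria, *Bax* forms pores in their outer membrane, and *Bcl2l11* encodes BIM, a BH3-only protein that activates the pore formers. In renin cells, cAMP signalling keeps the renin gene active, and *Btg2* and the GADD45 genes are immediate early or stress-inducible genes in many cell types.

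Promoter windows of the most abundant members (*Btg2* and *Btg1*), of the member with the highest ratio between genotypes (*Cdkn1a*) and of the pair of members most alike across cells (*Gadd45b* and *Gadd45g*) are printed to show the elements found there. The sequences are from RefSeq on GRCm38.p6 and run 5′ to 3′ on the strand of the gene, upstream of its annotated start. Capitals mark matches to a motif on either strand. The *Btg2* window (chr1:134079299-134079336, minus strand) holds the full cAMP response element TGACGTCA at positions -166 to -159 from the start. In *Btg1* (chr10:96616799-96616995, plus strand) the capitals are copies of its core TGACG read on the other strand, and TATAAA at positions -26 to -21. *Cdkn1a* (chr17:29090891-29090952, plus strand) has a pair of p53 decamers (the unit that is paired in a p53 site). A second RefSeq promoter of *Cdkn1a*, at another start, held none of the motifs searched and is not printed. *Gadd45b* (chr10:80930030-80930065, plus strand) and *Gadd45g* (chr13:51846633-51846668, plus strand) each hold TATAAA.
Btg2: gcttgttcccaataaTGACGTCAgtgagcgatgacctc
Btg1: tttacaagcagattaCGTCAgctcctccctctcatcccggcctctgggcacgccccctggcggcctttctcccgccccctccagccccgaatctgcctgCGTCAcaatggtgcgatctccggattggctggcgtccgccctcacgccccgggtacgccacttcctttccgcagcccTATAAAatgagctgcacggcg
Cdkn1a: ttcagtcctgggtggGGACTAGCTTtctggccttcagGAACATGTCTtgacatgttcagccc
Gadd45b: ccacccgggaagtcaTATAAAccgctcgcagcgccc
Gadd45g: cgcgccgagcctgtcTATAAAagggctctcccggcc

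The 250 bases before the start were searched on both strands for all 32851 RefSeq mouse promoters. The full cAMP response element was in 1.55% of them and its core, which lies within the full one, in 17.8%. Among the members the full element was found in *Btg2* alone and the core in *Btg1* and *Btg2*. TATAAA was in 12.4% of all promoters and in those of *Btg1*, *Gadd45b*, *Gadd45g* and *Trp53*. The p53 decamer was in 7.13% of all promoters and in those of *Cdkn1a*, *Gadd45a*, *Bax* and *Trp53*, though not in the second promoter of *Cdkn1a*. The CArG box, found in 1.47% of all promoters, was in none of the 12 member windows, and *Mcl1* and *Bcl2l11* held none of the motifs searched. These matches describe letters in a window and were not tied to binding.

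The WT renin cells were sequenced in a library of their own, and the *Renin*-null cells in the libraries YFP1 and YFP2, with 48 cells in each. No mouse or capture is named for a cell, so each genotype was 1 sample, no test between genotypes was possible, and genotype cannot be told apart from library or capture. The median depth was 1525972 counts per WT cell and 4107950 per *Renin*-null cell, and the median share of mitochondrially encoded transcripts was 60.4% for WT and 12.4% for *Renin*-null cells. A cell was called passing if it had 100000 counts or more, 1000 genes or more, and a mitochondrial share of no more than 25%. By these limits 15 of 51 WT cells passed and 57 of 96 *Renin*-null cells, 28 of them in YFP1 and 29 in YFP2. Among cells that did not pass, 34 of 36 in WT and 36 of 39 in *Renin*-null cells were over the mitochondrial limit. In 4 pairs of *Renin*-null wells the profiles were nearly identical (Pearson's r of at least 0.974, next highest pair 0.896), and in WT no pair was above 0.717. Values below are counts per 1000000 counts (CPM) of counts summed over cells unless a cell is named, and ratios are log2 of *Renin*-null over WT. The 95% intervals, given for ratios, treat reads as independent counts. The chemistry has no molecular identifiers, so they do not cover amplification of the same molecule. Nor do they cover differences between cells or mice.

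Labels and markers were checked first. *Ren1* stood at 96023 CPM in WT cells, with at least 563 CPM in every one of the 51, and at 54 counts (0.135 CPM) over all 96 *Renin*-null cells. *Akr1b7*, a marker of renin cells, stood at 4528 CPM in WT and at 2011 CPM in *Renin*-null cells. *Acta2*, the smooth muscle actin, stood at 4349 and 4291 CPM. The *Renin*-null cells therefore carried no renin transcript beyond traces. *Akr1b7* was at least 2-fold lower in them, and 73 of 96 reached 10 CPM of it, against 51 of 51 WT cells.

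Across the 10 members, 8 had a ratio above 0, and 6 (*Btg1*, *Cdkn1a*, *Gadd45b*, *Gadd45g*, *Mcl1* and *Bax*) were at least 2-fold higher in *Renin*-null cells. Of all 18720 genes with a ratio, 52.4% were at least 2-fold higher, so this count lies near the background. Lower by at least 2-fold were *Gadd45a* and *Bcl2l11*, 2 of 10, against 18.5% of all genes. The median ratio was 1.39 for the members and 1.17 for all genes, and 6 members lay above the median of all genes. Passing cells gave the same picture, with 6 members at least 2-fold higher (51.6% of all genes) and 2 lower (20.1%), and medians of 1.17 for the members and 1.11 for all genes. Within YFP1 5 members were at least 2-fold higher than WT (45.7% of all genes) and within YFP2 7 were (49.8%). Both libraries share the WT cells they are set against. With each near-identical pair of wells counted once, the median of the members was 1.38. By sums, the members as a group thus stood close to genes at large. By the difference of mean log2(CPM + 1), 6 of 10 were at least 2-fold higher (median 1.53), against 4.77% of all 35438 genes (median 0). That base takes in genes without a count, so it cannot be set beside the 18720 genes used for the sums. What follows is about how each member was distributed.

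**Figure D1:**
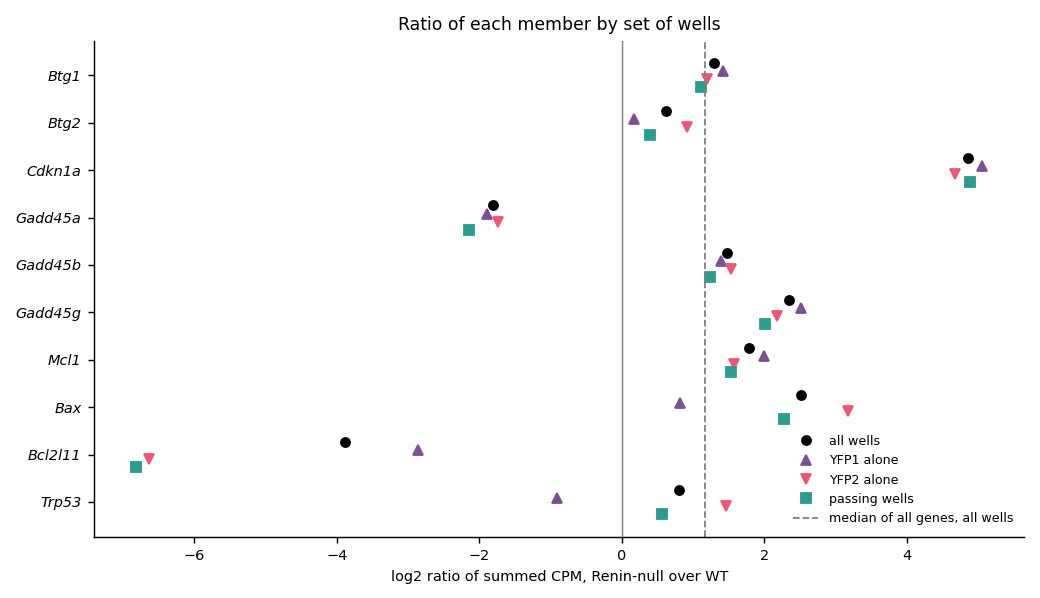
Log2 ratio of CPM summed over cells, Renin-null over WT, for each of the 10 genes (x axis), over all cells (circles), YFP1 alone (upward triangles), YFP2 alone (downward triangles) and passing cells (squares). The dashed line is the median of all genes over all cells, 1.17; Cdkn1a lies right of it in every set, Bcl2l11 and Gadd45a lie left of 0 in every set shown (Gadd45a is at 3.06 without its highest cell in each genotype), and Trp53 lies on both sides of 0.

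*Btg1*, the antiproliferative gene on chr10:96617006-96622809, was the most widely detected member, with a count in all 51 WT and all 96 *Renin*-null cells. Per-cell values ran from 9.23 CPM (median 82.1) to 8058 CPM in WT cells and from 5.03 CPM (median 2005) to 16625 CPM in *Renin*-null cells. In passing cells the medians were 1565 CPM in WT cells and 4118 CPM in *Renin*-null cells. Of the 57 passing *Renin*-null cells 47 lay above the WT median and 9 above the highest WT cell, so the groups overlapped widely with the *Renin*-null cells toward the upper end. The summed level was 1815 CPM in WT cells and 4466 CPM in *Renin*-null cells, a ratio of 1.30 (95% interval 1.29 to 1.30), and it was 1.42 in YFP1, 1.19 in YFP2 and 1.10 in passing cells. The medians of all genes were 1.17 over all cells, 0.71 in YFP1, 0.98 in YFP2 and 1.11 in passing cells, so that *Btg1* lay above its background mainly in YFP1. Its ratio was 0.60 with TMM factors, under 2-fold, and 2.51 as a difference of mean log2(CPM + 1). A single cell held 18.4% of the WT counts of *Btg1* and 7.58% of the *Renin*-null counts, the lowest share in 1 cell of any member in either genotype. Its near copies Btg1b and Btg1c held 0 counts in both.

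*Btg2*, its paralog on chr1:134075170-134079120 and a p53 target as well as an immediate early gene, was detected in 49 WT and 92 *Renin*-null cells. Passing cells ranged from 36.1 CPM (median 1223) to 9126 CPM in WT cells and from 2.37 CPM (median 1852) to 12901 CPM in *Renin*-null cells. The ranges overlapped almost wholly, with 4 *Renin*-null cells above the highest WT cell and 5 below the lowest. Summed levels were 1999 and 3068 CPM, a ratio of 0.62 (0.61 to 0.62), which fell short of 2-fold and of the median of all genes. It was -0.09 with TMM factors, and above 2-fold with the average CPM of cells (1.23), thinned cells (1.34), SCTransform (1.77) and the difference of mean log2(CPM + 1) (2.53), and the per-cell medians over all cells were 36.1 and 529 CPM. In passing cells the ratio was 0.40, and within them -0.07 for YFP1 and 0.71 for YFP2. *Btg1* and *Btg2* were both at or above 10 CPM in nearly all passing cells, 15 of 15 in WT and 51 of 57 in *Renin*-null cells. Per kilobase of exon, *Btg2* was the highest member in both genotypes, at 729 CPM per kb in WT and 1119 in *Renin*-null cells, followed by *Btg1* at 344 and 846, but within YFP1 *Btg1* was the higher, at 919 against 822.

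*Cdkn1a*, which encodes p21 (chr17:29090976-29100727), had the largest ratio of the members by summed counts. In WT cells it was near the limit of detection, from 0 (median 0.269 CPM) to 64.7 CPM, and in *Renin*-null cells it ran from 0 (median 3.84 CPM) to 2704 CPM. Of the passing cells, 2 of 15 in WT (13.3%) and 35 of 57 in *Renin*-null cells (61.4%) were at or above 10 CPM. Above the highest WT cell lay 18 *Renin*-null cells. The distributions thus overlapped at the low end and parted at the high end. Summed levels were 7.88 and 229 CPM, a 29.0-fold difference and a log2 ratio of 4.86 (4.79 to 4.93). Nearly the same ratio was seen in YFP1 (5.05), YFP2 (4.68) and passing cells (4.88), and with the highest cell of each genotype left out (5.07), while it was 4.16 with TMM factors and 2.20 as a difference of mean log2(CPM + 1), below *Btg2*, *Gadd45g* and *Btg1* on that scale. After every cell was thinned to 62000 counts, which left out 2 WT and 13 *Renin*-null cells, 18.4% of WT and 48.2% of *Renin*-null cells held a *Cdkn1a* count, against 28 of 51 and 72 of 96 before thinning. Another gene, AC167363.2, lies over *Cdkn1a* on the opposite strand, and reads of the pair cannot be told apart without strand.

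*Trp53* (chr11:69580359-69591873), in contrast, was a gene of a few cells. Its lowest and median values were 0 in both genotypes, and its highest were 1502 CPM in WT cells and 4211 CPM in *Renin*-null cells. One WT cell held 15857 of 15936 counts (99.5%) and carried 115.1 CPM of proximal tubule markers, and 1 *Renin*-null cell, in YFP2, held 45378 of 56034 (80.98%) and carried 4550 CPM of fibroblast markers. The part of these markers in the result was not tested. The summed ratio of 0.80 therefore compared a single cell with a handful, and its sign differed between the libraries, at -0.90 in YFP1 and 1.46 in YFP2. Without the highest cell of each genotype it was 6.06. At or above 10 CPM were 2 of 51 WT and 10 of 96 *Renin*-null cells. Of these 10, 4 also reached 10 CPM for *Cdkn1a*, as did 43 of all 96, and no WT cell reached it for both. The near copy Trp53-ps held 0 counts in both genotypes.

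**Figure D2:**
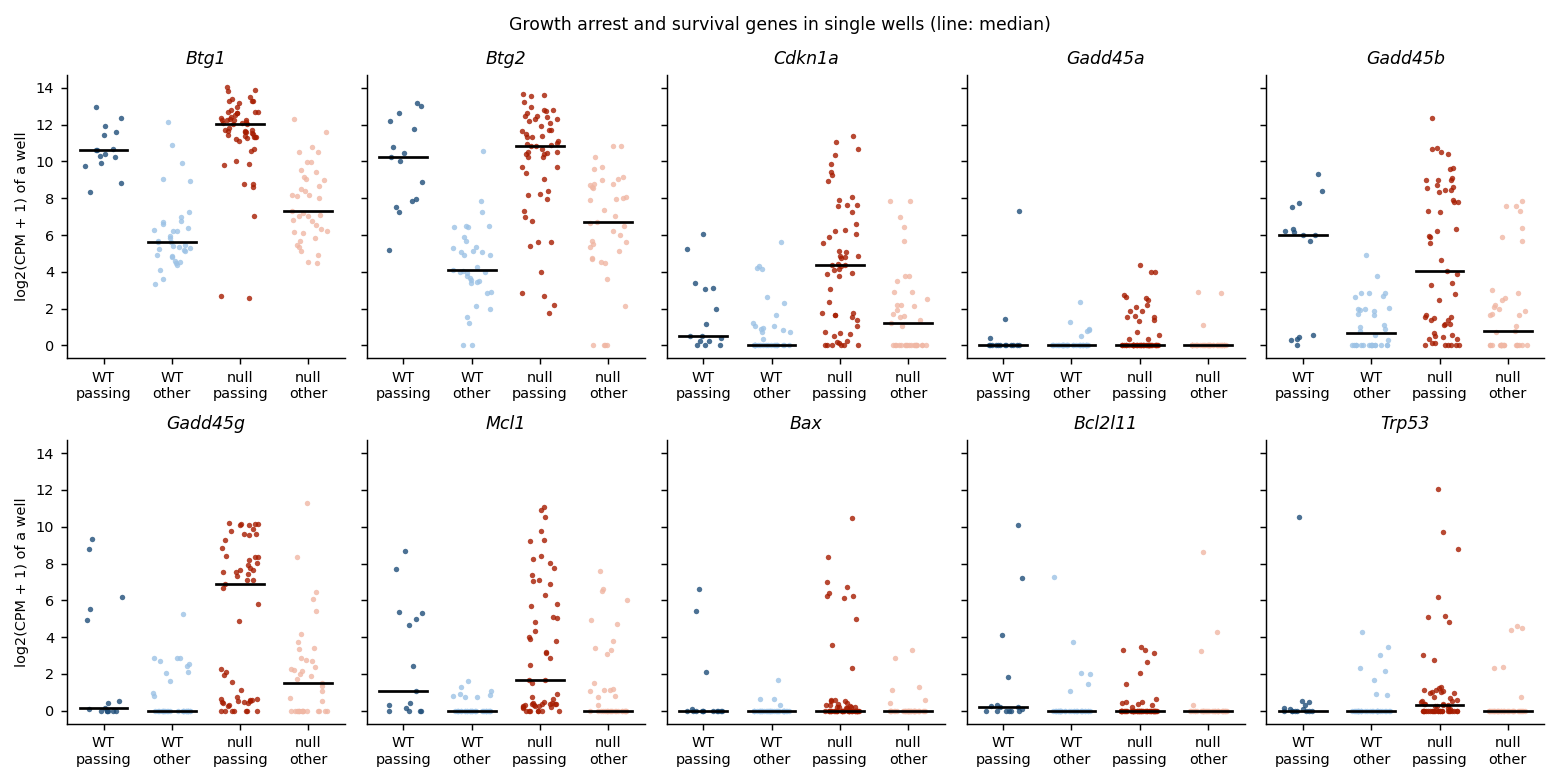
Expression of the 10 genes in single wells, as log2(CPM + 1) on the y axis, for WT and Renin-null cells that pass or do not pass the limits on quality; each point is 1 cell and the line is the median. Btg1 and Btg2 are at or above 10 CPM in nearly all passing cells, Cdkn1a, Gadd45b, Gadd45g and Mcl1 in part of them, and Gadd45a, Bax, Bcl2l11 and Trp53 in few.

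The 3 GADD45 genes differed from one another. *Gadd45g* (chr13:51846678-51848468) had the larger difference, with summed levels of 59.2 CPM in WT cells and 299 CPM in *Renin*-null cells, a ratio of 2.34 (2.31 to 2.37). Passing WT cells ran from 0 (median 0.129 CPM) to 636 CPM and passing *Renin*-null cells from 0 (median 118.3 CPM) to 1176 CPM. In the *Renin*-null cells the values fell into an upper and a lower band, with 32 of 57 at or above 10 CPM, against 5 of 15 in WT, and 11 cells lay above the highest WT cell. The ratio was 2.51 in YFP1, 2.18 in YFP2 and 2.01 in passing cells. After thinning, 18.4% of WT and 50.6% of *Renin*-null cells held a count.

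*Gadd45b* (chr10:80930073-80932204) gave opposite answers by sum and by median among passing cells. Summed over all cells it stood at 105.9 CPM in WT cells and 294 CPM in *Renin*-null cells (ratio 1.47, 1.45 to 1.49, and 0.77 with TMM factors, under 2-fold), and the medians over all cells, 0.975 and 2.84 CPM, ran the same way. In passing cells the sums were 139.5 and 327 CPM, but the median was 62.9 CPM in WT cells and 15.3 CPM in *Renin*-null cells, 10 of 15 WT cells and 30 of 57 *Renin*-null cells reached 10 CPM, and only 24 of the 57 lay above the WT median. The higher sum rested on the upper end of the range, where passing WT cells reached 628 CPM and *Renin*-null cells 5183 CPM, with 7 *Renin*-null cells above the highest WT cell. The *Renin*-null cell with the highest value, in YFP1, held 20.8% of the counts of its genotype and also carried 4308 CPM of fibroblast markers, and the part of such cells in the result was not tested.

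*Gadd45a* (chr6:67035096-67037457) was scarcely detected, with a count in 9 of 51 WT and 23 of 96 *Renin*-null cells. Values of single cells ran from 0 (median 0) to 157 CPM in WT cells and from 0 (median 0) to 20.1 CPM in *Renin*-null cells. Its summed levels of 6.82 and 1.95 CPM gave a ratio of -1.81 (-1.94 to -1.68), but 1 WT cell held 97.5% of the WT counts, and the ratio was 3.06 once the highest cell of each genotype was left out and 0.18 as a difference of mean log2(CPM + 1). The *Renin*-null cell with the most *Gadd45a* counts carried 11375 CPM of podocyte markers and 0.682 CPM of renin cell markers. A lower level of *Gadd45a* in *Renin*-null cells therefore rested on 1 WT cell. The gene E230016M11Rik lies over it on the opposite strand.

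*Mcl1*, the anti-apoptotic member (chr3:95658788-95663176), had summed levels of 39.3 CPM in WT cells and 135.6 CPM in *Renin*-null cells, a ratio of 1.78 (1.75 to 1.82). Passing cells ran from 0 (median 1.07 CPM) to 408 CPM in WT cells and from 0 (median 2.18 CPM) to 2142 CPM in *Renin*-null cells. Similar shares of them reached 10 CPM, 6 of 15 in WT (40.0%) and 24 of 57 in *Renin*-null cells (42.1%). Above the highest WT cell lay 6 *Renin*-null cells. Over all cells the shares differed, with 6 of 51 WT and 31 of 96 *Renin*-null cells at or above 10 CPM. Ratios were 2.00 in YFP1, 1.58 in YFP2 and 1.53 in passing cells. One cell held 63.2% of the WT counts, and the ratio was 2.87 without the highest cell of each genotype. That WT cell, which was also the highest for *Gadd45b*, carried 954 CPM of fibroblast markers, and the highest *Renin*-null cell carried 911 CPM of proximal tubule markers, whose part in the result was not tested.

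*Bax*, the pore former (chr7:45461697-45466898), was detected in 8 of 51 WT and 32 of 96 *Renin*-null cells. Its median was 0 in both genotypes, and the highest cells stood at 98.3 CPM in WT cells and 1419 CPM in *Renin*-null cells. At or above 10 CPM were 2 of 15 passing WT and 10 of 57 passing *Renin*-null cells. Summed levels of 6.15 and 35.3 CPM gave a ratio of 2.52 (2.43 to 2.60), which was 0.52 as a difference of mean log2(CPM + 1), 0.81 in YFP1 and 3.18 in YFP2, where 1 cell held 59.9% of the counts and carried 3474 CPM of fibroblast markers. A further gene, Gm45808, lies over *Bax* on the same strand and held 1843 counts in WT, 1838 of them in a passing cell with 0 *Bax* counts, and 0 in *Renin*-null cells. Counted together, they gave a ratio of 1.19 (1.13 to 1.25), near that of genes at large, so the size of the *Bax* difference depended on how reads of that WT cell were assigned.

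*Bcl2l11* (chr2:128126038-128162547), which encodes BIM, was the member with the largest difference toward WT. It had a count in 15 of 51 WT and 18 of 96 *Renin*-null cells, and ran from 0 (median 0) to 1113 CPM in WT cells and from 0 (median 0) to 394 CPM in *Renin*-null cells. Summed levels were 76.7 and 5.20 CPM, a ratio of -3.88 (-3.95 to -3.82). A single cell held 82.7% of WT counts and another 81.4% of *Renin*-null counts, and without these cells the ratio was -3.78. In passing cells 3 of 15 WT and 1 of 57 *Renin*-null cells reached 10 CPM, none of the *Renin*-null cells lay above the highest WT cell, and the ratio was -6.81. It was -2.87 in YFP1 and -6.64 in YFP2. The *Renin*-null cell with the highest value did not pass, with 51.5% mitochondrial counts, and held 8.64 CPM of renin cell markers and 32.2 CPM of smooth muscle markers. The direction was thus the same in both libraries and in passing cells, on few cells of either genotype, and the difference of mean log2(CPM + 1) was -0.42, under 2-fold.

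How far each gene rested on few cells is shown by the plot of cumulative counts. In WT cells the 5 highest cells held between 66.4% (*Btg1*) and 99.8% (*Trp53*) of a gene's counts. In *Renin*-null cells they held 28.7% for *Btg1*, 36.6% for *Gadd45g*, 38.3% for *Btg2*, 56.9% for *Gadd45b*, 67.05% for *Mcl1*, 67.8% for *Gadd45a*, 75.5% for *Cdkn1a*, 86.8% for *Bax*, 94.6% for *Bcl2l11* and 99.1% for *Trp53*. In *Renin*-null cells the BTG genes and *Gadd45g* were thus the most evenly spread members and *Trp53* and *Bcl2l11* the most concentrated, whereas in WT cells 5 cells held 99.6% of the *Gadd45g* counts. Wells that share an index with a very high well were looked at for low stray counts. For *Trp53* in WT, 10 of 14 wells that share an index with the highest well had a count, none over 10, against 4 of 36 wells that share none. For *Gadd45a* in WT the numbers were 6 of 14, none over 2, against 2 of 36. In WT a count was also more frequent in wells with a shared index for *Bcl2l11* (5 of 6 against 9 of 44) and *Gadd45g* (11 of 14 against 9 of 36). The same held for *Mcl1* (9 of 15 against 9 of 35) and *Gadd45b* (14 of 15 against 19 of 35), but not for *Cdkn1a* (7 of 14 against 20 of 36). Not all of these counts were low, since sharing wells reached 199 counts for *Bcl2l11*, 4998 for *Gadd45g*, 1333 for *Mcl1* and 794 for *Gadd45b*. Among *Renin*-null cells both patterns were seen, with 11 of 14 against 11 of 33 for *Bax* in YFP2 and 7 of 14 against 11 of 33 for *Trp53* in YFP1, but 5 of 14 against 14 of 33 for *Trp53* in YFP2 and 2 of 14 against 7 of 33 for *Gadd45a* in YFP1. The numbers of cells with a count given above take such low counts in.

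**Figure D3:**
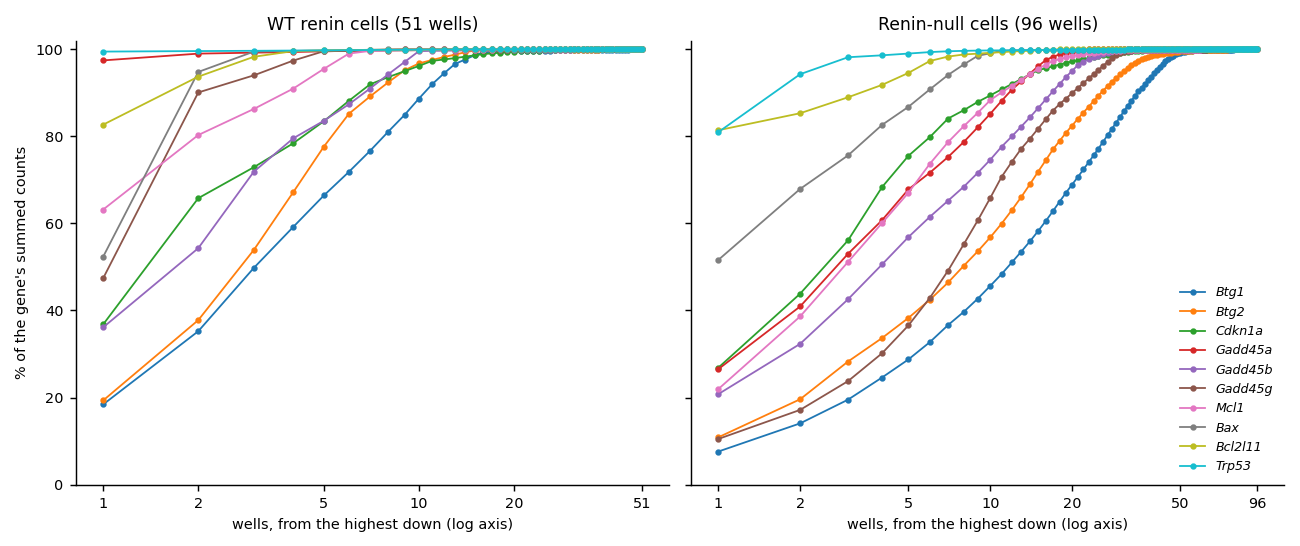
Cumulative share of a gene's summed counts (y axis, %) held by the highest cells (x axis, rank of the cell on a log axis) among 51 WT and 96 Renin-null cells, 1 line per gene. In WT cells the line of Trp53 starts at 99.5% with 1 cell and that of Btg1 at 18.4%; in Renin-null cells they start at 80.98% and 7.58%.

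The members were next compared between quality classes within a genotype. In WT, 9 of 10 were at least 2-fold higher in passing than in other cells, where 69.6% of all genes were, and the median ratio of passing over other cells was 5.85 for the members and 3.54 for all genes. *Btg1* stood at 2306 CPM in passing and 286 CPM in other WT cells, *Gadd45b* at 139.5 and 1.37 CPM, and *Mcl1* at 51.9 and 0.229 CPM. The exception was *Cdkn1a*, at 8.72 and 5.24 CPM. In *Renin*-null cells 7 of 10 were at least 2-fold higher in passing cells, where 58% of all genes were, with medians of 3.48 for the members and 1.58 for all genes. *Cdkn1a* had the highest of these ratios over both libraries together, with 257 CPM in passing and 3.63 CPM in other cells (log2 6.14). Within YFP1 its ratio of 6.42 lay below those of *Gadd45b* (7.98), *Gadd45g* (7.32) and *Trp53* (6.68). *Gadd45g* stood at 314 and 177 CPM, but 96.3% of the counts in the other cells were from 1 cell. *Bcl2l11* went the other way, at 0.859 CPM in passing and 40.4 CPM in other *Renin*-null cells (-5.56), where 1 cell held 95.5% of the counts. Because the classes were cut on mitochondrial share and CPM counts mitochondrial reads in its total, part of each ratio is arithmetic.

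By cell, a median of 2 members reached 10 CPM in a WT cell (range 0 to 7) and 4 in a *Renin*-null cell (1 to 7). Among passing cells the medians were 4 of 10 (2 to 7) and 5 of 10 (1 to 7), and in other cells they were 2 in both genotypes.

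Likeness between members was described over the 57 passing *Renin*-null cells, by Spearman's rho of log2(CPM + 1). The cells share 2 libraries and differ in depth and genes detected. The 45 pairs had a median rho of 0.04 and ran from -0.22 to 0.49. The pair most alike was *Gadd45b* and *Gadd45g* (0.49), and 22 cells reached 10 CPM for both, 8 for *Gadd45b* alone, 10 for *Gadd45g* alone and 17 for neither. Then followed *Btg2* with *Gadd45g* (0.38), *Btg1* with *Gadd45b* (0.37), *Btg2* with *Gadd45b* (0.37), *Cdkn1a* with *Gadd45g* (0.36) and *Btg1* with *Btg2* (0.35). *Btg1*, *Btg2*, *Gadd45b*, *Gadd45g* and *Cdkn1a* thus made up nearly all pairs with rho of at least 0.3, the other being *Cdkn1a* with *Bcl2l11* (0.33). The number of genes in a cell had a rho of 0.36 with *Cdkn1a*, 0.29 with *Btg2*, 0.52 with *Gadd45a*, 0.47 with *Bcl2l11*, 0.34 with *Trp53*, 0.25 with *Btg1*, 0.23 with *Gadd45b* and 0.19 with *Gadd45g*, and the part of depth in the pairs was not tested. *Mcl1* and *Bax*, whose products act against each other at the mitochondrion, had a rho of 0.07. Both reached 10 CPM in 3 cells, *Bax* alone in 7, *Mcl1* alone in 21 and neither in 26.

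Genes most like a member were looked up among 5268 genes with a count in at least 50% of these cells. For *Gadd45b* they were *Id3* (rho 0.63), *Errfi1* (0.55) and *Nr4a1* (0.53), the last an immediate early gene, and for *Gadd45g* they included *Appbp2* (0.55) and *Zbtb38* (0.52). *Cdkn1a* was most like *Eva1c* (0.59), *Ythdc1* (0.58) and *Sh3bgrl* (0.56). The genes most like *Btg2* included *Flna* and *Sfpq* (both 0.50), and *Mcl1* went with *Hdgfl3*, *Dct* and *Ppfia1* (0.49, 0.48 and 0.47). For *Trp53* the genes were *Ndufs3*, *Bbs4* and *Zc3h7b* (0.61, 0.61 and 0.52), and for *Btg1* they were *Vmn1r55*, *Olfr943* and 4930516K23Rik (0.50, 0.49 and 0.49), of which the first 2 are receptors of chemosensory neurons. The remaining members had a count in fewer cells and were not looked up. With so many genes ranked over 57 cells, the values describe these cells and do not single out partners.

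Other genes of the same pathways were taken from fixed lists, and their counts are set against the 52.4% of all genes that were at least 2-fold higher and the 18.5% that were lower. Genes with the highest and lowest ratios are named among those with at least 10 CPM in either genotype. In the BTG and TOB family 3 of 6 were at least 2-fold higher in *Renin*-null cells and none lower (median ratio 0.96, all genes 1.17). Its other members with at least 10 CPM, *Tob1* (35.4 and 53.98 CPM, ratio 0.61) and *Tob2* (168 and 115.2 CPM, -0.54), differed by less than 2-fold. Of 10 CCR4-NOT subunits, the deadenylase that BTG proteins bind, 6 were higher and 3 lower (median 2.26), a count near the shares of all genes. With at least 10 CPM they ran from *Cnot9* (3.89 and 97.6 CPM, 4.65) and *Cnot8* (4.56) to *Cnot7* (-1.24) and *Cnot6* (-1.51). As with the rarer members, *Cnot9* counts came mostly from 1 cell in each genotype (99.6 and 75.7%).

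Among the cyclin-dependent kinase inhibitors, 5 of 7 had a ratio, 3 of them higher and 1 lower. *Cdkn1c*, which encodes p57, stood at 9.75 CPM in WT cells and 241 CPM in *Renin*-null cells (4.63), with 83.1% of the latter in 1 cell, while *Cdkn1b*, which encodes p27, differed by less than 2-fold (47.0 and 33.7 CPM, -0.48). *Cdkn2c* had a ratio of -1.30. *Cdkn1a* was thus the inhibitor whose higher level was spread over the most cells, with a count in 72 of 96 *Renin*-null cells, as against 50 for *Cdkn1c*. Proliferation genes were higher in 8 of 10 and lower in 1 (median 4.46). *Mki67*, a marker of cycling cells, was at 0 in WT and at 16.6 CPM in *Renin*-null cells, at least 10.09 on the log2 scale, and 1 cell held 92.01% of its counts. *Cdk1* had 13.9 CPM in *Renin*-null cells and 1 count in WT (11.43, interval 8.95 to 16.7), with 92.4% in 1 cell, *Ccnd1* had 20.1 and 83.5 CPM (2.06), and *Pcna* had 35.6 and 16.8 CPM (-1.08). In passing cells, however, *Pcna* was at 0.12 and no gene of the list was lower. Cells with 10 CPM of *Mki67* numbered 3 of 96, and all 3 also reached 10 CPM of *Cdkn1a*, which 43 of the 96 did. For *Top2a*, a further marker of cycling cells, 7 of 10 such cells reached it.

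Of 9 regulators of p53, 5 were higher and 2 lower (median 1.58), near the shares of all genes. *Mdm2*, which marks p53 for degradation and is itself a p53 target, was lower (87.7 and 36.6 CPM, -1.26), and *Mdm4* differed by less than 2-fold (185 and 149 CPM, -0.31). *Atm*, a kinase of the DNA damage response, had 83.05 CPM in *Renin*-null cells, 91.5% of it in 1 cell, and 0.0606 CPM in WT (10.42), and the phosphatase gene *Ppm1d* had a ratio of 3.78 with 99.6% in 1 cell. Of 20 p53 targets, 14 were higher and 5 lower (median 2.97), against 52.4 and 18.5% of all genes. In passing cells 12 were higher and 5 lower (median 2.76), against 51.6 and 20.1%. The largest ratios at 10 CPM or more were those of *Eda2r* and *Plk2*. *Eda2r* was at 0 in WT and at least 9.59 higher on the log2 scale, with 99.4% of its counts in 1 cell. *Plk2* (0.298 and 62.6 CPM, 7.71) had a count in 33 *Renin*-null cells, but 1 of them held 72.3% of its counts there. *Zmat3* (18.4 and 1.85 CPM, -3.31) and *Xpc* (-1.84) were the lowest at that level, and 1 cell held 95.1 and 99.04% of their WT counts. The list of targets therefore did not run in 1 direction, and the canonical target *Mdm2* was opposite in sign to *Cdkn1a*.

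Among genes whose products are known to work with GADD45 proteins, 2 of 6 were higher and 3 lower (median -0.33), against 52.4 and 18.5% of all genes. In passing cells 2 were higher and 2 lower, and the median turned to 0.13. The kinases *Map3k4* (24.4 and 1.42 CPM, -4.10) and *Map2k7* (95.5 and 10.7 CPM, -3.16), which act in stress kinase cascades, were at least 2-fold lower in both libraries, whereas *Ccnb1* (8.48) was higher with 97.2% of its counts among *Renin*-null cells in 1 of them. In the BCL2 family, 5 of 7 anti-apoptotic genes were higher and 1 lower (median 3.31), where 52.4% of all genes were higher and 18.5% lower. Among the higher ones *Bcl2a1a*, *Bcl2a1b* and *Bcl2a1d* were at 0 in WT and had a count in 2, 6 and 1 *Renin*-null cells. The median was the ratio of *Bcl2a1a*, and so rested on a gene at 0 in WT. *Bcl2l1*, which encodes BCL-XL, was lower in *Renin*-null cells (274 and 113.7 CPM, -1.27), *Bcl2* differed by less than 2-fold (112.9 and 92.9 CPM, -0.28), *Bcl2l2* was higher (2.96 and 44.3 CPM, 3.90), and *Bcl2a1b* was at 0 in WT (at least 9.83 higher). *Mcl1* and *Bcl2l1*, both protectors of mitochondria, thus differed in opposite directions. Of the pore formers 2 of 3 had a ratio and both were higher. BH3-only genes were higher in 3 of 7 and lower in 3 (median -0.99), with *Bid* (21.0 and 1.44 CPM, -3.87) beside *Bcl2l11* at the low end and *Bad* at -0.99. In passing cells, however, the median was -0.13, that of *Bid*, and 1 cell held 94.6% of its WT counts.

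Caspases and the apoptosome genes had 4 of 10 higher and none lower (median 0.67). *Casp8* (6.98) and *Apaf1* (6.83) were the highest, *Casp8* with 97.7% of its *Renin*-null counts from 1 cell, *Apaf1* with a count in 40 cells, and *Cycs* (85.5 and 103.5 CPM, 0.28) and *Diablo* (0.69) differed by less than 2-fold. FOXO factors, which activate *Bcl2l11* in other cells, showed 1 of 3 higher, and *Foxo3* (124.95 and 130.7 CPM, 0.07) and *Foxo1* (0.01) were near 0 over all cells but not in each library, with *Foxo3* at -0.91 in YFP1 and 0.56 in YFP2 and *Foxo1* at -3.81 and 0.84. The libraries also differed in sign for *Diablo* (1.58 and -1.08), *Cycs* (0.83 and -0.44), *Mdm4* (-1.46 and 0.23), *Ppm1d* (4.92 and -5.94) and *Hspa1a* (-0.39 and 1.90). Genes of the response to tissue dissociation, which enzymatic digestion can induce, had a median of 0.04 over 20 genes, with 4 higher and 1 lower (in passing cells -0.19, with 1 higher and 1 lower). Among them *Hsph1* (0.237 and 78.7 CPM, 8.37) and *Hspa1a* (1.25) were highest, and *Ier2* (-1.25) and *Hspa1b* (-0.85) lowest. *Gadd45b*, *Gadd45g* and *Cdkn1a* had ratios above the median of this list, and *Btg2*, at 0.62, lay nearer to it.

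**Figure D4:**
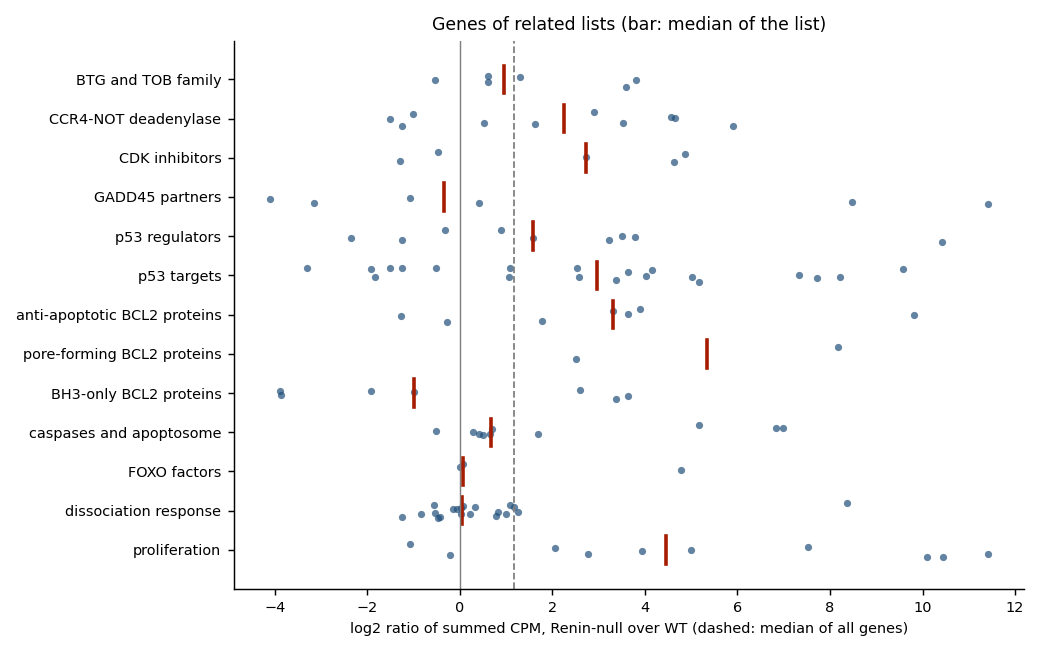
Log2 ratio of summed CPM, Renin-null over WT (x axis), for the genes of each related list that had a ratio; each point is 1 gene, the bar is the median of the list, and the dashed line is the median of all genes, 1.17. The dissociation response is centred at 0.04 and the proliferation genes at 4.46, while BH3-only genes and GADD45 partners have medians below 0 (in passing cells -0.13 and 0.13).

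Markers of other kidney cells moved with genotype. Summed over *Renin*-null cells, 7 of 7 proximal tubule markers had counts and stood at 328 CPM in all (led by *Miox*, 115.2 CPM), against 29.4 CPM in WT, where *Slc5a2* was at 0. Distal nephron markers stood at 22.2 CPM in WT cells and 186 CPM in *Renin*-null cells (led by *Slc12a1*, 79.8 CPM), and podocyte markers at 2.89 and 391 CPM (led by *Nphs1*, 142.03 CPM), with *Podxl* at 0 in WT. Endothelial markers stood at 36.8 and 221 CPM (led by *Emcn*, 161 CPM), with *Cdh5* at 0 in WT, and fibroblast markers at 171 and 625 CPM (led by *Col1a2*, 352 CPM). Lymphocyte markers stood at 1.56 and 34.4 CPM (led by *Cd3g*, 20.1 CPM), with *Cd79b* at 0 in both genotypes. The macrophage markers were at 0.0606 and 1.13 CPM, with *Adgre1* at 0 in both. Smooth muscle markers were alike in sum, at 10455 CPM in WT cells and 11546 CPM in *Renin*-null cells. Singly, *Tagln* (ratio 0.61) and *Cnn1* (0.86) were higher in *Renin*-null cells and *Myh11* (-0.58) lower, each by less than 2-fold. The libraries were not alike in this. Endothelial markers stood at 28.7 CPM in YFP1, below WT, and at 381 CPM in YFP2, podocyte markers at 14.4 and 705.7 CPM, and fibroblast markers at 343 and 860 CPM.

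The members were therefore set out by these markers. Of the 57 passing *Renin*-null cells, 30 held at least 100 CPM of tubule, podocyte, endothelial, macrophage or lymphocyte markers together and 27 did not. Fibroblast markers, which reached 100 CPM in 37 of the 57, were not part of this split, and the cell with the most *Gadd45b* is among the 27. *Cdkn1a* stood at 209 CPM in the former and 312 CPM in the latter, *Gadd45g* at 274 and 361 CPM, *Gadd45b* at 234 and 436 CPM, and *Btg1* at 4472 and 5509 CPM. The sums of these 4 were higher in cells without these markers, but that of *Cdkn1a* rested on 1 cell, and without its highest cell it was 173 CPM in the latter. *Mcl1* was at 185 CPM with and 108.5 CPM without the markers, and *Gadd45a* at 3.18 and 0.688 CPM. *Bax* stood at 12.3 CPM with and 70.8 CPM without the markers, and *Trp53* at 15.0 and 322 CPM. Their highest cells were among the 27. With those cells left out, the levels without the markers were 27.5 CPM for *Bax* and 49.3 CPM for *Trp53*, still the higher ones. The *Trp53* sums still rested on few cells, since 5 passing cells held 99.4% of its counts and the second highest held 7467. Its per-cell medians, at 0.271 CPM with and 0.129 CPM without the markers, ran opposite to its sums. The per-cell medians of *Cdkn1a*, at 23.0 CPM with and 2.18 CPM without the markers, ran opposite to its sums.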

How the data were processed

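Single-cell RNA sequencing covered 51 WT and 96 *Renin*-null cells. By the submitters' processing notes and the study's methods, reads were checked with FastQC 0.11.5, trimmed with Trimmomatic 0.39 and quantified with Salmon 0.11.2 on GRCm38.p6, and transcripts were summed to genes with tximport (lengthScaledTPM). The values the authors deposited are estimated counts of each gene, without a depth normalization and with a correction for gene length. Here they were rounded, summed over the cells of a genotype, library or quality class, and scaled to CPM. With no mouse or capture named for a cell, a genotype counted as 1 sample and nothing was tested between genotypes. A sum of 0 was replaced by 3 counts per group, and pairs of sums of 3 or fewer gave no ratio. Intervals at 95% were exact (Poisson for sums, conditional for ratios). On summed counts simulated as Poisson for 11897 genes with 200 changed, 95.0% of the intervals held the true ratio of *Renin*-null over WT. This checks the calculation alone, since the simulation had no cells and so no spread between them.

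WT cells held 26401 to 17124854 counts and *Renin*-null cells 3628 to 14505243, with sums of 197904443 and 398812805. Passing cells held 75.7 and 89.0% of these sums. No doublet caller was run. Gene coordinates and exon lengths were taken by symbol from GENCODE M21 (GRCm38), and promoters from RefSeq. The genes and lists were chosen with earlier results of these data known. Named were all members, from each list the 2 highest and the 2 lowest ratios among genes with at least 10 CPM in either genotype, and for members with a count in at least 50% of passing *Renin*-null cells the 3 genes most like them. A few genes that this rule names are not reported here. Alternatives were TMM factors (0.784 for WT and 1.28 for *Renin*-null cells), CPM without mitochondrial counts, the average CPM of cells, the difference of mean log2(CPM + 1), the highest cell left out, cells thinned to 62000 counts, each library, passing cells, near-identical wells counted once, cells over 9000 genes left out, SCTransform with the mitochondrial percentage regressed out, counts not rounded, and filters on genes. Counting Gm45808 with *Bax*, and leaving out the highest cell where cells were split by markers, were added after the data were seen. Normalizations used sctransform 0.4.2, Seurat 5.3.0 and, for the TMM factors alone, edgeR 4.0.16, all in R 4.3.3. Other steps used scipy 1.17.1, pandas 2.3.3, matplotlib 3.10.9 and numpy 2.4.6 in Python 3.11.15.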

Additional observations from a re-analysis of the deposited data

Results flagged for a closer look

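The *Bcl2l11* values of passing and other cells ran in opposite directions in the 2 genotypes. In WT the log2 ratio of passing over other cells was 2.69 (96.5 and 14.9 CPM), and in *Renin*-null cells it was -5.56 (0.859 and 40.4 CPM). In the other *Renin*-null cells 1 cell held 95.5% of the counts and in the other WT cells 1 cell held 96.7%, so that 3 of the 4 levels, counting the passing WT cells with 86.8%, rested on a single cell. The difference between the genotypes was not tested.

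*Trp53* ran in opposite directions in the 2 *Renin*-null libraries, at -0.90 for YFP1 over WT and 1.46 for YFP2 over WT. One cell held 95.7% of the YFP1 counts, another 94.1% of the YFP2 counts and another 99.5% of the WT counts. The difference between the libraries was not tested.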

How the results depend on the processing

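The median ratio of the 10 members was 1.39 and stayed above 0 under all 13 alternatives. It was 0.68 with TMM factors, 1.10 in YFP1 alone, 2.15 with the average CPM of cells, 2.25 with cells thinned, 2.34 with SCTransform and 2.71 without the highest cell of each gene. TMM factors moved the median of all genes from 1.17 to 0.47, and *Btg2* from 0.62 to -0.09, and left 4 members at least 2-fold higher in place of 6 (43.1% of all genes in place of 52.4%), without *Btg1* (0.60) and *Gadd45b* (0.77). The number was 8 with cells thinned (56.9%), with SCTransform (64.3%) and without the highest cell (63.2%), and 7 with the average CPM of cells (57.97%). *Gadd45a* changed sign from -1.81 to 0.18 with the difference of mean log2(CPM + 1) and to 3.06 without its highest cell in each genotype. *Cdkn1a* ranged from 2.20 to 5.12, *Gadd45g* from 1.64 to 3.42, *Bcl2l11* from -6.81 to -0.42 and *Trp53* from -0.90 to 6.06. Of 130 member ratios under these alternatives, 81 moved by less than the spread between YFP1 and YFP2 (1 SD), 47 moved by more, and 2, both of *Gadd45a*, changed the sign of a ratio that was at least 2-fold. Among ratios under 2-fold, *Btg2* with TMM factors and *Trp53* in YFP1 (-0.90) also changed sign. With a filter of at least 100 summed counts 54.01% of all genes were at least 2-fold higher, and with at least 10 CPM in either genotype 47.8%. No paired analysis was possible because the ratios come from no test. Thinning cells to 62000 counts, mitochondrial ones included, moved *Btg1* from 1.30 to 1.97 and *Btg2* from 0.62 to 1.34, and a count of 0 for *Gadd45a*, *Bax*, *Bcl2l11* or *Trp53* in a shallow cell is no evidence of absence.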
